A study of Mus musculus with 69 samples.

Results

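Glucose breakdown in T cells was followed through 34 genes: transporters, the enzymes of glycolysis, the enzymes and carriers that handle lactate and pyruvate, and the enzymes of the pentose phosphate pathway. They were taken by symbol, as a list of pathway members, from the count tables of CD8+ T cells, of CD4+ T cells and of retrovirus-transduced cells. No cut-off on their values was used, but the list was chosen with earlier results of these data known. All 34 were among the 24309 gene symbols that the tables share. Of these, 2 are glucose transporters, 10 act in upper glycolysis, 9 in lower glycolysis, 6 on lactate and pyruvate, and 7 in the pentose phosphate pathway. The symbols as listed were Slc2a1, Slc2a3, Hk1, Hk2, Gpi1, Pfkl, Pfkm, Pfkp, Pfkfb3, Aldoa, Aldoc, Tpi1, Gapdh, Pgk1, Pgam1, Bpgm, Eno1, Eno1b, Eno2, Eno3, Pkm, Ldha, Ldhb, Slc16a1, Slc16a3, Pdk1, Pdk3, G6pdx, Pgls, Pgd, Rpia, Rpe, Tkt and Taldo1.

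The libraries came from mice of 3 genotypes. WT mice carried every Stat5 allele (Stat5a+/+ Stat5b+/+), AAB mice kept a single allele of Stat5b (Stat5a-/- Stat5b+/-), and BBA mice kept a single allele of Stat5a (Stat5a+/- Stat5b-/-). The deletions were in the germline and so in every tissue, the mice were 8 to 16 weeks old, and T cells were sorted from pooled lymph nodes and spleens. CD8+ T cells were naive (Tnv, CD44 low CD62L high), central memory (Tcm, CD44 high CD62L high) or effector memory (Tem, CD44 high CD62L low), and were taken without cytokine (NC) or after culture with IL-7 or IL-15 at 10 ng/ml for up to 18 h. Tem cells had no IL-7 group, and naive CD4+ T cells were studied without cytokine and with IL-7. Each CD8+ group held 2 libraries, and the CD4+ groups held 2 or 3. Another 4 libraries, labelled as in vitro activated CD8+ cells of AAB mice, carried a retrovirus for constitutively active STAT5A (CA-STAT5A, 2 libraries) or the empty vector (2 libraries). Per the study's methods, the transduced cells were activated with antibodies to CD3 and CD28 and, after transduction, cultured with IL-2. According to the methods, NC cells were processed directly, so that cytokine and time in culture cannot be told apart in a comparison with NC. The sample labels, however, describe culture for NC cells too, and which of these holds is not known. The study's reporting summary counts mice as the replicates of its RNA-seq, but the labels tie no library to an animal, and p-values measure the spread between these libraries. In bulk RNA, fewer cells of a type and less RNA per cell cannot be told apart.

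Glucose enters T cells through carriers of the Slc2a family, is trapped by hexokinase and is split into triose phosphates, which lower glycolysis turns into pyruvate with a gain of ATP and NADH. Pyruvate either enters mitochondria or is reduced to lactate, which restores NAD+ and leaves the cell through Slc16a carriers. The pentose phosphate pathway branches off at glucose 6-phosphate and gives NADPH and ribose. Resting naive T cells are known for low glycolytic activity and activated or cytokine-stimulated T cells for a higher one, and STAT5 is the main transcription factor that IL-7 and IL-15 activate.

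Total counts on genes were 5926139 to 25612758 per CD8+ library (median 12830672.5), 6705004 to 34118295 per CD4+ library and 11020965 to 16516525 per retrovirus library. The members together took 0.292% to 0.554% of a CD8+ library's counts. Levels are given as CPM, the usual count of RNA-seq reads relative to library size, with the size scaled by TMM, a correction for library composition. Stat5a stood at 0.981 to 5.13 CPM in AAB CD8+ libraries against 32.2 to 110 in WT, and Stat5b at 49.0 to 87.4 CPM in BBA against 167 to 360 in WT, so the targeted genes followed the genotype labels. CD8 lineage markers (Cd8a and Cd8b1 summed) reached 1243 to 3300 CPM in CD8+ libraries and 9.88 to 26.9 CPM in CD4+ libraries. They were at 1.73 to 4.67 CPM in the 4 retrovirus libraries, where the NK cell markers Ncr1 and Klrb1c summed to 1610 to 1847 CPM, against at most 10.03 CPM in every other library. The values of these 4 libraries thus go against their label as CD8+ cells. The labels give no sex. By the counts of Xist and Y-linked genes the CD8+ libraries outside the IL-7 groups were from female mice, Tnv with IL-7 was from male mice, and Tcm with IL-7 mixed both sexes in AAB and BBA but was male in WT.

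Within WT cells the members spanned a wide range of abundance. Per kilobase of merged exons, the median over the 10 WT groups was highest for Aldoa, the main aldolase of lymphocytes, at 141.8 CPM per kb (98.5 to 173), followed by lactate dehydrogenase Ldha at 132 (101 to 198) and pyruvate kinase Pkm at 124 (89.8 to 169). These ranges overlapped, so the order among the top members is not fixed. Phosphoglycerate kinase Pgk1 followed at 90.3 CPM per kb (69.6 to 178). At the other end lay hexokinase Hk2 at 1.12 CPM per kb (0.0867 to 2.94), the brain-type aldolase Aldoc at 0.572, the lactate carrier Slc16a3 at 0.515 and neuronal enolase Eno2 at 0.459. Aldoc, Eno2 and Slc16a3 passed the filter on low counts in only 3 of 35 comparisons each, Hk2 in 26 and Ldhb in 33, and the other 29 members in all 35. A gene was kept if any library exceeded the filter, so counts over tested members describe the genes kept and not all 34.

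With edgeR fitted to each condition by itself, the number of members called between genotypes was largest in Tcm cells cultured with IL-15. A single fit over all CD8+ libraries did not keep this rank. Of the same tested members, it called 12 lower and 1 higher in BBA Tcm with IL-7, and 11 lower and 1 higher with IL-15. The counts that follow are those of the separate fits. To be called, a gene had to change by over 1.5-fold and reach an adjusted p below 0.05 (Benjamini-Hochberg, over all genes tested) in edgeR's quasi-likelihood test. In BBA against WT, 10 of 31 tested members were called lower and 1 was called higher, while 11.8% of all 9944 genes tested were called lower and 11.7% higher. The share of members called lower was above that background and the share called higher below it. The median log2 difference of the tested members was −0.34, against 0.02 over all genes, and 26 of 31 were below 0. By role, 5 of 8 tested members of lower glycolysis fell (median −0.73), 2 of 9 in upper glycolysis (−0.27), 2 of 5 of the lactate and pyruvate group (−0.20, with 1 higher) and 1 of 7 of the pentose phosphate pathway (−0.37), and neither glucose transporter was called (0.14). The 5 of lower glycolysis and the 10 of 31 count both Eno1 and Eno1b, near-identical copies whose split of reads is uncertain.

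In upper glycolysis the largest difference was that of Tpi1, triose phosphate isomerase, encoded on chromosome 6 of GRCm38 (124810586 to 124814296, minus strand). Tpi1 stood at 138 and 122 CPM in the WT libraries, at 58.9 and 64.5 in AAB and at 32.6 and 29.9 in BBA. The genotypes did not overlap, with AAB between WT and BBA. The BBA level was 24.02% of WT (log2 difference −2.06, SE 0.11, adjusted p = 9.52e-05 by the edgeR test, n = 2 per group). Hk2, the inducible hexokinase that commits glucose to the cell, stood at 15.3 and 15.6 CPM in WT, 7.33 and 8.87 in AAB and 6.23 and 7.59 in BBA. Both deficient genotypes lay below WT and overlapped each other. The BBA level of Hk2 was 44.8% of WT (log2 difference −1.15, SE 0.20, adjusted p = 0.00473 in the same edgeR fit). Liver-type phosphofructokinase Pfkl (−0.56) and Aldoa (−0.27) passed the adjusted p alone and were under 1.5-fold. Differences for Hk1 (−0.17), Gpi1 (−0.13), Pfkm (0.07), Pfkp (−0.34) and the phosphofructokinase regulator Pfkfb3 (0.01) did not pass the test.

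In lower glycolysis both enolase entries, which make phosphoenolpyruvate, fell. Eno1, on chromosome 4 (150236721 to 150248879, plus strand), stood at 60.4 and 61.5 CPM in WT, 31.3 and 41.0 in AAB and 22.1 and 23.3 in BBA. Its near-identical copy Eno1b stood at 103.5 and 102.6 CPM in WT, 58.4 and 64.9 in AAB and 35.0 and 20.7 in BBA. For both entries the 3 genotypes were fully separated, with BBA lowest. The BBA levels were 37.3% of WT for Eno1 (log2 difference −1.42, SE 0.14, adjusted p = 0.000669 by edgeR) and 27.0% for Eno1b (−1.90, SE 0.21, adjusted p = 0.000907). Counting may have dropped or shared out reads that fit both copies, so the split between Eno1 and Eno1b is uncertain. Also called lower were Pgk1 (51.1% of WT, log2 difference −0.97), glyceraldehyde 3-phosphate dehydrogenase Gapdh (60.2%, −0.73) and Pkm (60.5%, −0.72), the 3 enzymes that yield NADH or ATP. These genes and others here have processed pseudogenes, which can take a share of their reads. Phosphoglycerate mutase Pgam1 (−0.42) passed the adjusted p but not the fold, and Bpgm (0.19) and muscle enolase Eno3 (−0.08) passed neither.

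Among the genes for lactate and pyruvate, the carrier Slc16a1 fell and the lactate dehydrogenase subunits moved in opposite directions. Slc16a1, also named MCT1, stood at 99.1 and 93.2 CPM in WT, 60.7 and 65.0 in AAB and 46.0 and 36.7 in BBA, where it was 43.0% of WT (log2 difference −1.22, SE 0.12, adjusted p = 0.000661 by edgeR). Ldha, the subunit that favours lactate formation, stood at 560 and 502 CPM in WT, 432 and 436 in AAB and 324 and 318 in BBA (BBA against WT −0.73, SE 0.09, adjusted p = 0.00132 by edgeR). Neither gene overlapped between any of the genotypes. Ldhb, the subunit more used in oxidative tissues, was far less abundant and ran the other way, with 3.39 and 3.47 CPM in WT, 4.33 and 4.25 in AAB and 10.3 and 13.3 in BBA. It was the member called higher, at 343% of WT (log2 difference 1.78, SE 0.25, adjusted p = 0.00199 by edgeR). The pyruvate dehydrogenase kinases, which hold pyruvate back from mitochondria, were not called. Pdk1 showed 129 and 175 CPM in WT and 227 and 43.2 in BBA, with the BBA libraries on either side of WT (−0.18, SE 0.61), and Pdk3 differed by −0.20.

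The stretches before the starts of Slc16a1 and Ldha are shown because these were the members called lower whose promoter windows held CACGTG, the E-box that MYC and related factors bind. The sequences are those of RefSeq starts on GRCm38.p6, 250 bases each, plus strand, 5′ to 3′, with CACGTG in capitals.
Slc16a1, chr3:104638414-104638663: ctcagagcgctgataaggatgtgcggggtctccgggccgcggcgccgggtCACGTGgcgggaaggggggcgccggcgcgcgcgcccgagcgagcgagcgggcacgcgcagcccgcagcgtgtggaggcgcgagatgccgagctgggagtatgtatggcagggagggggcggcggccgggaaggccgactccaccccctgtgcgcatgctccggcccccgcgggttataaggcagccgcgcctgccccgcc
Ldha, chr7:46845554-46845803: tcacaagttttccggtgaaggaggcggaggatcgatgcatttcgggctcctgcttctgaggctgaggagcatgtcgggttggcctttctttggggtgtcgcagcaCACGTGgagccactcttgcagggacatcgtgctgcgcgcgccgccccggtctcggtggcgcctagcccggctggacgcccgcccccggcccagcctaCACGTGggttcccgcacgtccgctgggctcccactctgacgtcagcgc
The E-box lay 200 bases before the start of Slc16a1, and at 145 and 48 bases before that of Ldha. Windows of 250 bases before and 50 after a start were listed for 32 of 34 members, not for Slc2a3 and Eno1b. CACGTG, which reads the same on both strands, was in 4 of 46 member windows (8.7%, those of Slc16a1, Ldha, Pfkfb3 and Pfkm), against 7.15% of 32851 windows of all genes. TTCNNNGAA, a STAT motif whose fixed letters also read the same on both strands, was in 2 member windows (4.35%, Aldoc and Pfkm) against 8.3% of all. Of 13 windows of 9 members called lower, 2 held the E-box (15.4%) and 0 held the STAT motif. Both shares of the E-box rest on few windows, and a match of letters is no measure of binding.

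In the pentose phosphate pathway Tkt, the transketolase of the non-oxidative branch, was called. Tkt stood at 302 and 290.0 CPM in WT, 194 and 233 in AAB and 142 and 151 in BBA. Again the genotypes were apart, with AAB in the middle. The BBA level was 49.4% of WT (log2 difference −1.02, SE 0.11, adjusted p = 0.00079 by edgeR). The oxidative enzymes G6pdx (−0.38), Pgls (−0.37) and Pgd (−0.48), and transaldolase Taldo1 (−0.32), passed the adjusted p at less than 1.5-fold. The pentose isomerase Rpia (−0.32) and epimerase Rpe (−0.17) did not pass. The high-affinity glucose carrier Slc2a3, GLUT3, ran against this order. Slc2a3 stood at 53.9 and 57.4 CPM in WT, 80.2 and 82.9 in AAB and 81.4 and 80.6 in BBA. Both deficient genotypes were above WT, by 1.46-fold in BBA (adjusted p = 0.00282 by edgeR), which is just under the fold required. Slc2a1, the carrier GLUT1, differed by −0.27 (adjusted p = 0.0773, same edgeR fit).

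**Figure D1:**
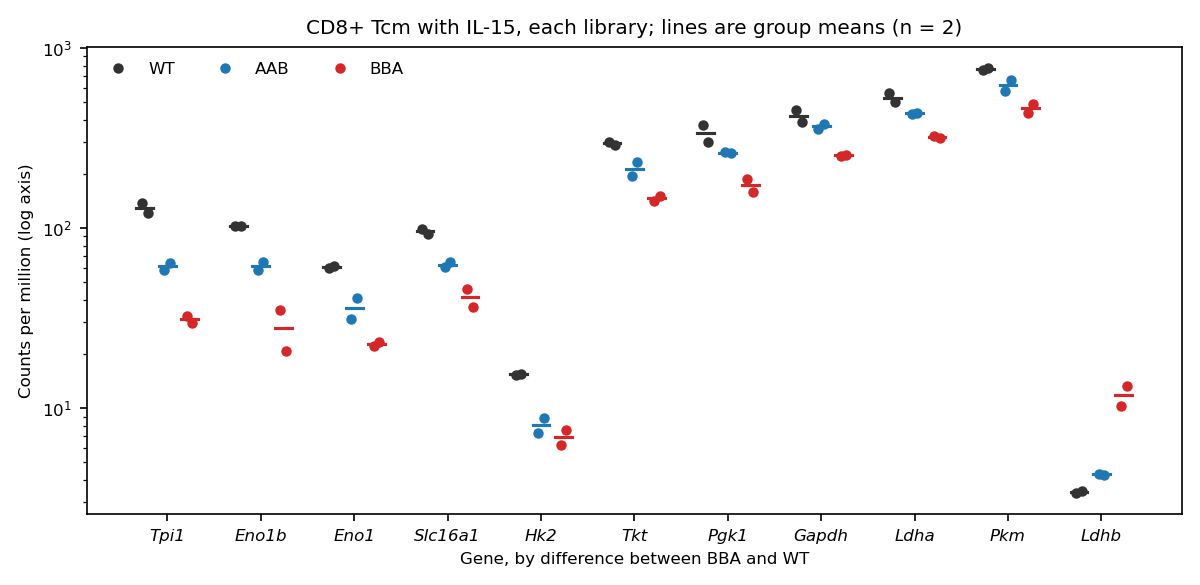
Level of the 11 called members in each Tcm library with IL-15, in CPM on a log axis, with WT, AAB and BBA as separate colours and 1 point per library. In 10 members the BBA points lie below WT, and in Ldhb they lie above it (10.3 and 13.3 against 3.39 and 3.47 CPM).

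Fewer members were called in AAB cells, which share the WT libraries with the BBA comparison. In AAB against WT, 4 of 31 tested members were called lower and 0 higher, with 2.57% of all genes called lower. They were Tpi1 (log2 difference −1.08, adjusted p = 0.00471 by edgeR), Hk2 (−0.93, 0.038), Eno1 (−0.75, 0.0258) and Slc16a1 (−0.61, 0.0303), and the median of the tested members was −0.17. The number was 1 without WT replicate 1 or AAB replicate 1 and 2 without WT replicate 2 or AAB replicate 2, while Tpi1 stayed called in each of these fits. In AAB directly against BBA, 5 of 31 were called higher in AAB and 1 lower, against 3.15% and 2.71% of all genes. Higher in AAB were Eno1b (log2 difference 1.16, adjusted p = 0.0233 by edgeR), Tpi1 (0.98, 0.00585), Eno1 (0.67, 0.0356), Pgk1 (0.61, 0.0344) and Slc16a1 (0.61, 0.0308), and Ldhb was lower (−1.46, 0.0195). This number fell to 3 without AAB replicate 1, to 1 without AAB replicate 2 and to 2 without BBA replicate 2.

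Summed markers of cell state also differed between the genotypes in these Tcm libraries. The 5 memory markers (Cd44, Il2rb, Eomes, Ly6c2, Cxcr3) summed to 2067 to 2280 CPM in WT, 1928 to 2082 in AAB and 988 to 1085 in BBA, and the 5 naive markers to 3271 to 3274, 3693 to 3837 and 4197 to 4239 CPM. Cd8a and Cd8b1 were at 2670 to 3182 CPM in WT and 1884 to 2063 in BBA, and 3 proliferation markers at 108 to 124 in WT, 67.3 to 135 in AAB and 39.1 to 69.5 in BBA. The 4 B cell markers summed to 101 to 177 CPM in WT and 174 to 356 in BBA, and the 5 myeloid markers to 14.8 to 21.9 and 30.1 to 52.1 CPM. The part of these shifts in the differences of the members was not tested.

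Whether the BBA difference depended on culture with IL-15 was asked with an interaction term over the 12 Tcm libraries without cytokine and with IL-15. In this fit 11 of 31 tested members had a lower BBA-to-WT ratio with IL-15 than without, 0 a higher one, and 5.21% of all genes were called in that direction. The largest was Tpi1. Without cytokine Tpi1 stood at 82.2 and 67.2 CPM in WT, 70.8 and 68.9 in AAB and 61.2 and 52.2 in BBA, and with IL-15 at 134 and 118, 56.7 and 62.0, and 31.3 and 28.7. WT libraries were thus higher with IL-15 and BBA libraries lower than their NC counterparts, for a difference of differences of −1.68 on the log2 scale (SE 0.18, adjusted p = 0.00142 by edgeR). Hk2 gave −1.49 (SE 0.27, adjusted p = 0.011 by edgeR), with 7.69 and 7.04 CPM in WT and 9.90 and 8.48 in BBA without cytokine against 14.8 and 15.1 in WT and 5.97 and 7.28 in BBA with IL-15. The order of the genotypes was therefore opposite in the 2 conditions. Slc16a1 (−1.13), Eno1 (−1.13), Tkt (−0.97), Pkm (−0.83), Pgam1 (−0.83), Ldha (−0.77), Gapdh (−0.69), Pgd (−0.67) and Pfkl (−0.60) were also called. Tkt showed 187 and 168 CPM in WT and 167 and 173 in BBA without cytokine, where the genotypes overlapped, and 293 and 281 against 136 and 145 with IL-15. The number called was 3 without WT replicate 1 of the IL-15 group, 4 without either BBA library with IL-15 and 6 without BBA replicate 2 of the NC group, with Tpi1 and Tkt called in all 12 such fits and Gapdh and Pfkl in 1.

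**Figure D2:**
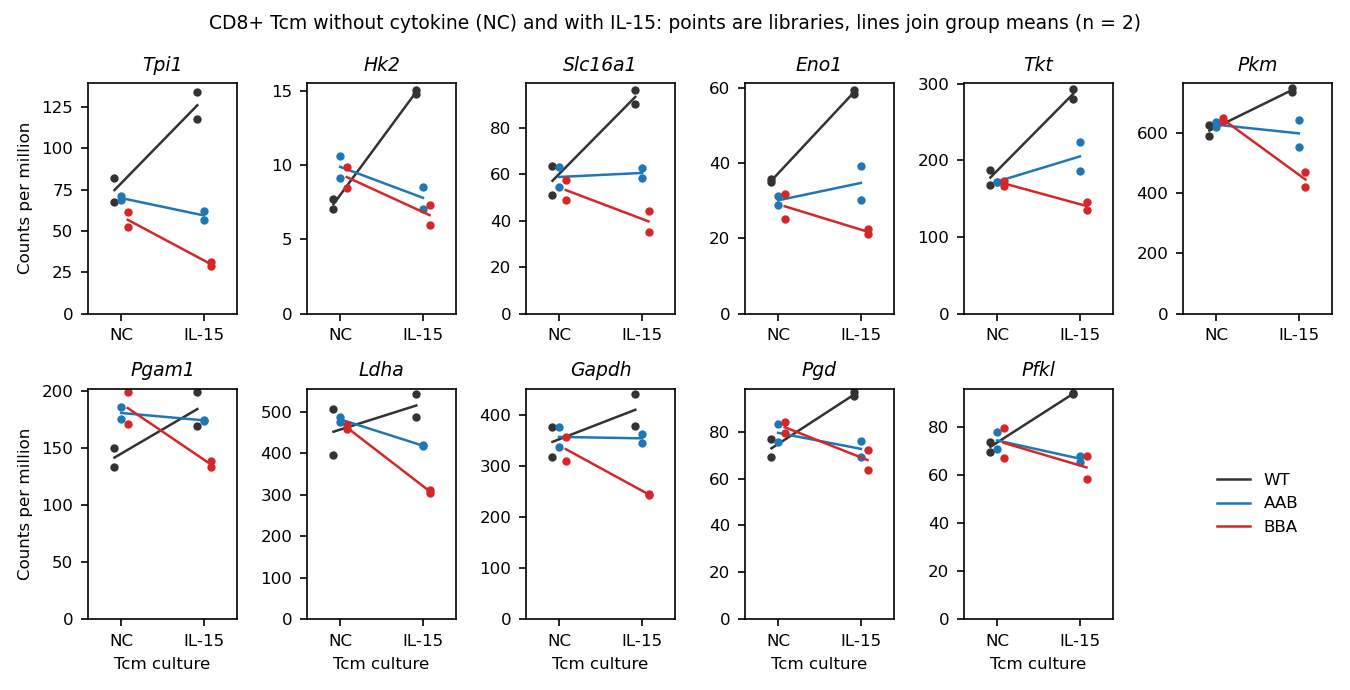
Level in CPM of the 11 members called in the interaction, in Tcm without cytokine (NC) and with IL-15, for WT, AAB and BBA, with 1 point per library. For Tkt BBA and WT overlap in NC, at 167 to 187 CPM, and lie apart with IL-15, at 136 to 293 CPM. In NC the BBA points are also apart from WT for some members. They lie below WT for Tpi1 and Eno1 and above it for Hk2, Pgam1, Pkm and Pgd.

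Without cytokine, Tcm cells showed no member called in either genotype. Here and below, the shares of all genes are those of the edgeR calls. Counts of members at an unadjusted p, by DESeq2 or with a replicate block have no such background beside them. In BBA against WT 0 of 31 tested members were called by edgeR (4 at an unadjusted p under 0.05, 2 called by DESeq2, 2 with a replicate block), with 0.277% of all genes called, a median of 0.02, and values from −0.81 for Eno1b to 1.45 for Ldhb. In AAB against WT 0 of 31 were called (2 at an unadjusted p under 0.05, 0 by DESeq2), with 0.0395% of all genes called. With IL-7, 4 of 31 members fell in BBA and 1 rose, against 1.43% and 1.66% of all genes, and the median was −0.37 with 27 of 31 below 0. Tpi1 stood at 139 and 97.6 CPM in WT, 59.5 and 61.0 in AAB and 47.4 and 35.3 in BBA (BBA against WT −1.52, adjusted p = 0.0292 by edgeR). Eno1b stood at 88.7 and 77.3 CPM in WT, 55.1 and 55.3 in AAB and 31.1 and 30.5 in BBA (−1.43, adjusted p = 0.0127 by edgeR). These are the genes with the largest differences in Tcm with IL-15 too, and again BBA was lowest. Eno1 (−0.97) and Pgk1 (−0.80) also fell, and Pdk1 rose (1.43, adjusted p = 0.0488 by edgeR) from 29.1 and 45.6 CPM in WT to 83.6 and 118 in BBA. In AAB with IL-7, 0 of 31 were called by edgeR (10 at an unadjusted p under 0.05, 3 by DESeq2), with 0.0594% of all genes called and a median of −0.30, and 10 were called without WT replicate 2.

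In BBA Tcm the median member difference was of like size with IL-7 and IL-15 (−0.37 and −0.34). The numbers called thus do not rank these conditions by size of difference. The variation between libraries estimated by edgeR was 22.8% with IL-7 and 12.0% with IL-15. The IL-7 values carry wider limits. The number called in BBA was 0 without either BBA library, 2 without either AAB library, 13 without WT replicate 2, 3 with a replicate block and 0 with a term for sex. Both WT libraries were male by their counts. In these libraries 5 myeloid markers summed to 220 to 404 CPM in WT, 46.6 to 62.4 in AAB and 139 to 207 in BBA, and memory markers to 2175 to 3207 CPM in WT and 876 to 987 in BBA. Their part in the differences was not tested.

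In naive CD8+ T cells Tpi1, Eno1b and Ldhb were called in BBA, each of which was also called in Tcm with IL-15. Without cytokine, Tpi1 fell in BBA (36.6 and 33.0 CPM against 60.8 and 51.9 in WT, log2 difference −0.70, adjusted p = 0.016 by edgeR), 1 of 31 tested, with 1.48% of all genes called lower. Ldhb rose (21.3 and 25.02 CPM against 12.9 and 9.86, 1.03, adjusted p = 0.0236 by edgeR), 1 of 31, with 1.27% called higher. The AAB libraries lay between for Tpi1 (43.0 and 44.2 CPM) and at 21.5 and 18.8 CPM for Ldhb, and 0 of 31 members were called in AAB (3 at an unadjusted p under 0.05, 1 by DESeq2; 0.164% of all genes). The BBA calls were both lost without WT replicate 1 or BBA replicate 2, and Ldhb also without WT replicate 2. With IL-15, Eno1b fell from 69.9 and 55.3 CPM in WT to 23.8 and 19.5 in BBA (−1.53, adjusted p = 0.00452 by edgeR), with AAB at 36.9 and 40.2, and Tpi1 from 66.7 and 51.1 CPM to 28.8 and 20.4 (−1.26, adjusted p = 0.0114 by edgeR), with AAB at 29.8 and 27.2. The BBA and WT libraries did not overlap for either gene. Ldhb rose from 15.4 and 19.3 to 35.5 and 27.9 CPM (0.87, adjusted p = 0.0473 by edgeR), a call lost whichever of the 6 libraries was left out. In all, 2 of 31 fell and 1 rose in BBA, against 2.51% and 6.8% of all genes, and a replicate block called 5.

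In AAB Tnv cells with IL-15, 0 of 31 members were called by edgeR (6 at an unadjusted p under 0.05, 2 by DESeq2, 1 with a replicate block; 0.726% of all genes), with Tpi1 the lowest at −1.04 (adjusted p = 0.0715). AAB directly against BBA gave 0 of 31 (4 at an unadjusted p under 0.05, 1 by DESeq2; 0.0706% of all genes). The interaction of BBA with IL-15 in Tnv cells gave 0 members called (5 at an unadjusted p under 0.05, 0 by DESeq2), with 2.54% of all genes called in either direction and a median of −0.13. With IL-7, 0 of 31 members were called in BBA (5 at an unadjusted p under 0.05, 2 by DESeq2, 4 with a replicate block; 2.69% of all genes) and 0 of 31 in AAB (1 at an unadjusted p under 0.05, 0 by DESeq2; 0.256% of all genes). Hk2 had the lowest BBA value there (−2.41, adjusted p = 0.0807 by edgeR) with 0.798 and 1.25 CPM in BBA, 5.95 and 4.997 in WT, and 8.05 and 3.43 in AAB. The fit for BBA with IL-7 called 2 members without AAB replicate 1 and 2 without AAB replicate 2. WT replicate 2 of Tnv with IL-15 held CD4 lineage markers at a summed 327 CPM.

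In effector memory cells few members passed the test. In Tem with IL-15 the single member called in BBA was Eno1b, at 29.5 and 23.96 CPM in BBA, 49.2 and 46.9 in AAB and 73.9 and 58.5 in WT (log2 difference −1.31, adjusted p = 0.0353 by edgeR), 1 of 32 tested with 1.18% of all genes called lower. This call was lost in all 6 fits that left out a library, and a replicate block called 6 members. Ldhb had the highest value (1.71, adjusted p = 0.142 by edgeR), with 14.1 and 15.9 CPM in BBA against 3.36 and 5.80 in WT. Without cytokine 0 members were called in BBA (5 at an unadjusted p under 0.05, 1 by DESeq2, 2 with a replicate block; 0.206% of all genes). AAB against WT gave 0 called members without cytokine (4 at an unadjusted p under 0.05, 1 by DESeq2; 0.0197% of all genes) and 0 with IL-15 (4 at an unadjusted p under 0.05, 0 by DESeq2; 0.0196%).

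In naive CD4+ T cells with IL-7, Eno1 was lower and Ldhb higher in BBA. Eno1 stood at 42.3, 46.8 and 46.2 CPM in WT, 33.1 and 32.7 in AAB and 26.9, 19.8 and 18.2 in BBA. The 3 genotypes did not overlap, and BBA differed from WT by −1.06 on the log2 scale (SE 0.14, adjusted p = 0.00155 by edgeR, n = 3 per group), a call kept whichever of the 8 libraries was left out. Ldhb stood at 24.1, 30.4 and 33.8 CPM in WT, 38.2 and 37.0 in AAB and 36.9, 48.3 and 56.6 in BBA (0.67, SE 0.16, adjusted p = 0.0316 by edgeR), and was no longer called without WT replicate 1 or 2 or BBA replicate 2 or 3. These were 1 of 30 tested members lower and 1 higher, against 2.62% and 2.88% of all genes. BBA replicate 3 of this group also held effector markers at a summed 50.4 CPM. AAB against WT gave 0 of 30 (2 at an unadjusted p under 0.05, 0 by DESeq2; 0.611% of all genes), and AAB against BBA gave 0 (4 at an unadjusted p under 0.05, 1 by DESeq2; 1.56%). Without cytokine 0 of 30 were called in BBA (4 at an unadjusted p under 0.05, 0 by DESeq2; 1.13% of all genes) and 0 in AAB (2 at an unadjusted p under 0.05, 0 by DESeq2; 0.355%). The interaction of BBA with IL-7 gave 0 called members (4 at an unadjusted p under 0.05, 1 by DESeq2; 1.11% of all genes).

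**Figure D3:**
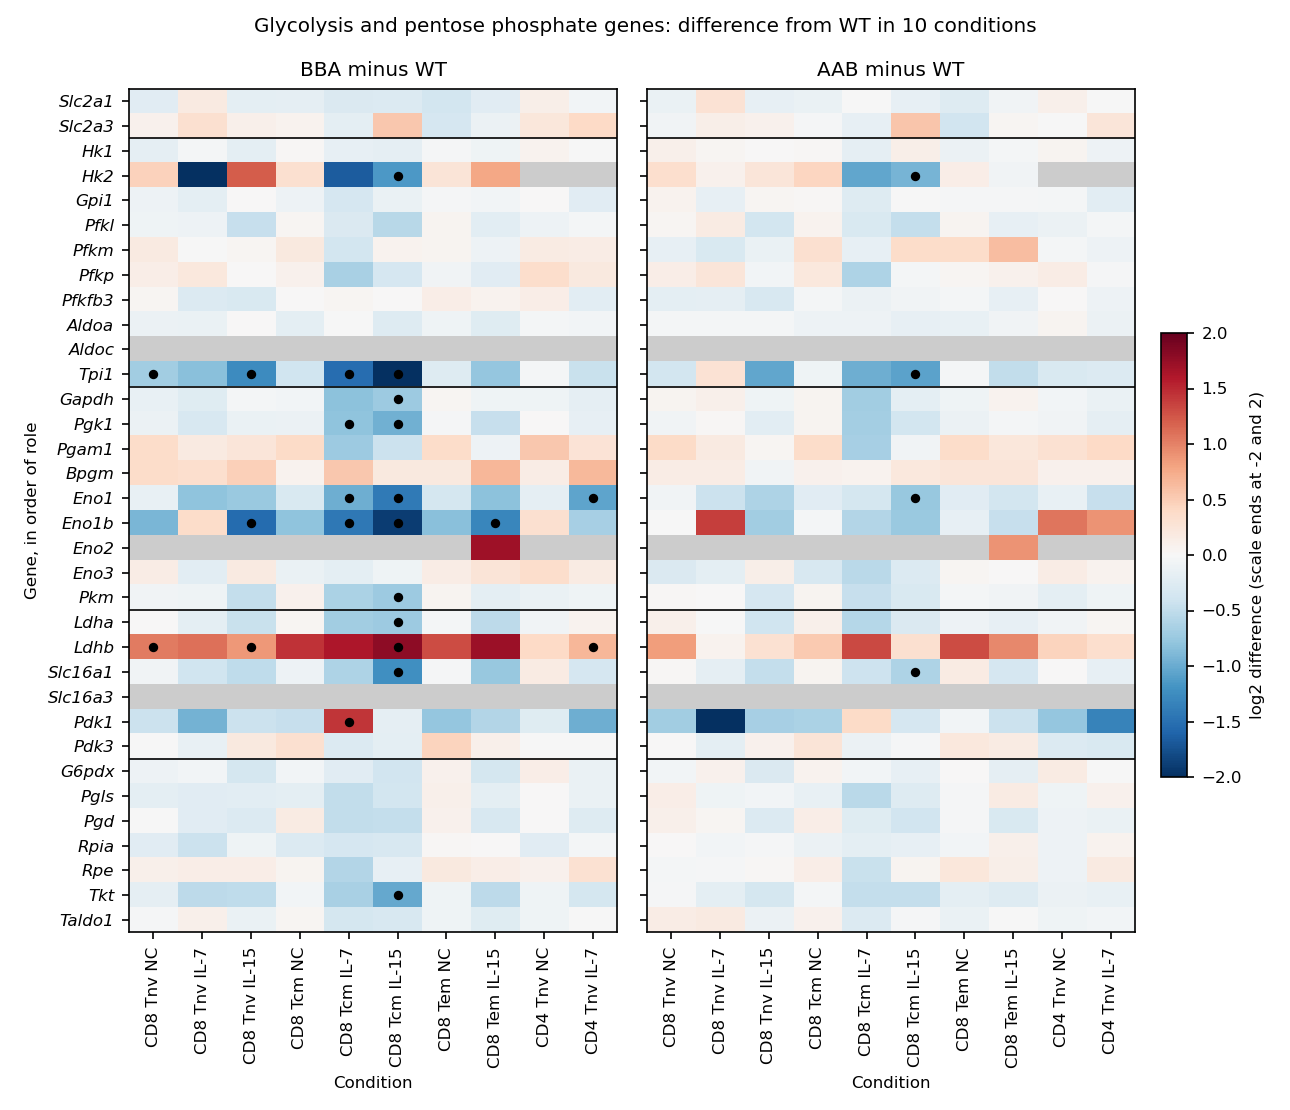
Log2 difference from WT of BBA and of AAB for the 34 members (rows, by role) in 10 conditions (columns), on a colour scale from −2 to 2, with black dots on called values and grey where a gene was not tested. Most dots lie in BBA Tcm with IL-15, and Tpi1, Eno1 and Tkt are below 0 in all 10 BBA columns while Ldhb is above 0 in all 10.

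Set side by side over the 10 conditions, a few members kept their sign. In BBA, Tpi1 was below WT in 10 of 10 conditions (log2 differences −2.06 to −0.05, called in 4), Eno1 in 10 (−1.42 to −0.15, called in 3) and Tkt in 10 (−1.02 to −0.06, called in 1). Ldhb was above WT in 10 of 10 (0.39 to 1.78, called in 4), as was Bpgm, which makes the red cell effector 2,3-bisphosphoglycerate (0.06 to 0.67, called in none). In AAB, Eno1 and Tkt were below WT and Ldhb above it (0.07 to 1.33) in 10 of 10 conditions, though Ldhb was called in none of them. AAB and BBA share their WT libraries, so their values are not independent. The share of all genes that keep 1 sign over the conditions is not given, so these counts have no background.

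The mean log2 CPM over all 34 members was furthest from WT in BBA Tcm cells with IL-15. In Tcm with IL-15 it was 6.09 and 6.06 in WT, 5.89 and 5.99 in AAB and 5.67 and 5.66 in BBA, a difference from WT of −0.41 for BBA and −0.13 for AAB. In Tcm with IL-7 the differences were −0.39 and −0.30, and in Tcm without cytokine 0.00 and 0.01. In Tnv they were −0.14 and −0.03 without cytokine, −0.05 and 0.14 after IL-7, and −0.14 and −0.17 after IL-15. In Tem they lay between −0.09 and 0.05. In CD4+ cells the BBA difference was 0.19 without cytokine and 0.00 with IL-7. The mean gives each gene the same weight, so that low genes such as Aldoc count as much as Aldoa, and WT replicate 1 of both CD4+ conditions and of Tnv with IL-7 held under 1 CPM of Eno1b. Without Eno1b the BBA and AAB differences were −0.36 and −0.11 for Tcm with IL-15 and −0.15 and 0.01 for Tnv with IL-7. For CD4+ cells they were 0.12 and −0.04 without cytokine and −0.03 and −0.04 with IL-7. Over the tested members alone BBA libraries overlapped those of WT in Tnv and in CD4+ cells without cytokine (differences of −0.05 and 0.13). They stayed apart in Tcm with IL-15, where the differences were −0.47 for BBA and −0.22 for AAB.

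Some members varied between libraries of the same group more than by genotype. Eno1b was under 1 CPM in 3 WT libraries (replicate 1 of Tnv with IL-7, at 0.0842 CPM, and replicate 1 of both CD4+ conditions), while the other WT CD8+ libraries held 41.7 to 116 CPM, AAB CD8+ libraries 36.0 to 68.4 and BBA CD8+ libraries 17.5 to 39.1. The ranges of BBA and WT overlap only through this library in CD8+ cells. Pdk1 had the widest spread between replicates of all members, with a median log2 ratio between replicates of 0.68. In 7 of 8 CD8+ conditions BBA replicate 1 held 96.3 to 258 CPM of Pdk1 and replicate 2 held 29.2 to 42.9 CPM, and the exception was Tcm with IL-7. Whether same-numbered libraries share an animal is not given, and a fold for Pdk1 between genotypes rests on which libraries are taken.

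**Figure D4:**
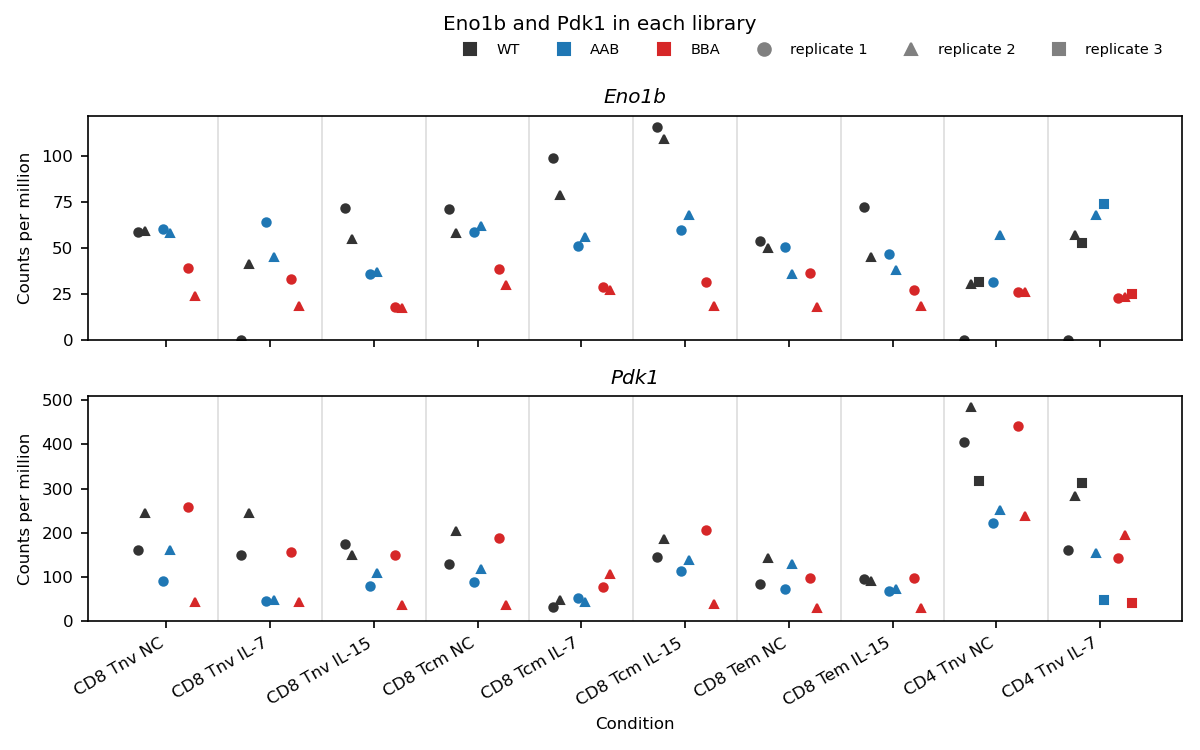
Level in CPM of Eno1b and Pdk1 in each library by condition and genotype, with the marker shape giving the replicate number. For Eno1b 3 WT libraries fall under 1 CPM, and for Pdk1 BBA replicate 2 lies at 29.2 to 42.9 CPM in 7 of 8 CD8+ conditions, below replicate 1.

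In WT cells, few members were called after culture with cytokine. In Tnv with IL-7 against NC, 3 of 30 tested members fell, with 10.4% of all genes called lower: Slc2a1 from 68.1 and 67.5 to 40.2 and 41.9 CPM (log2 difference −0.72, adjusted p = 0.00572 by edgeR), Gapdh from 262 and 268 to 186 and 153 CPM (−0.65, adjusted p = 0.00537) and the constitutive hexokinase Hk1 from 238 and 220 to 145 and 150 CPM (−0.63, adjusted p = 0.00188). None of these overlapped, but by their counts the NC libraries were female and the IL-7 libraries male, so sex, culture and cytokine cannot be told apart. The same holds for WT Tcm with IL-7 against NC. Tnv with IL-15 gave 0 of 30 (9 at an unadjusted p under 0.05, 0 by DESeq2; 6.15% of all genes). Tcm gave 0 of 33 with IL-7 (13 at an unadjusted p under 0.05, 4 by DESeq2, 1 with a replicate block; 0.381% of all genes) and 0 of 33 with IL-15 (11 at an unadjusted p under 0.05, 5 by DESeq2; 0.0% of all genes). The median of the tested members in Tcm was 0.31 with IL-7, with 27 above the median of all genes and 6 below. With IL-15 it was 0.15, with 21 above and 12 below. As hardly any gene was called in Tcm, 0 calls do not show that the members were unchanged. The value furthest from 0 in Tcm with IL-7 was that of Pdk1 (−2.07, adjusted p = 0.0684 by edgeR), at 28.0 and 43.4 CPM against 113 and 187 without cytokine. Leaving out either WT library with IL-7 from the Tcm fit gave 6 members called with IL-15. Tem with IL-15 gave 0 of 30 (7 at an unadjusted p under 0.05, 0 by DESeq2; 1.64% of all genes).

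In WT CD4+ cells, IL-7 raised 2 of 31 tested members and lowered 1, against 9.32% and 7.44% of all genes. Eno1 rose from 21.2, 26.3 and 28.2 to 41.0, 45.3 and 45.1 CPM (log2 difference 0.79, SE 0.12, adjusted p = 0.000988 by edgeR) and Aldoc from 1.56, 1.43 and 1.01 to 2.94, 2.90 and 3.47 CPM (1.24, SE 0.32, adjusted p = 0.0158 by edgeR). Ldha fell from 467, 461 and 573 to 326, 332 and 335 CPM (−0.59, SE 0.10, adjusted p = 0.00189 by edgeR). No group overlapped in these 3 genes. A replicate block called 5. In each of these WT comparisons the share of members called was at or below the share of all genes.

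Cell states without cytokine differed in Ldhb. In WT Tnv it stood at 13.1 and 9.93 CPM, in Tcm at 4.76 and 3.19 CPM, and in Tem at 3.80 and 3.79 CPM. Naive cells were above both memory states, and Tcm and Tem overlapped. Tcm against Tnv gave a log2 difference of −1.55 (SE 0.27, adjusted p = 0.0383 by edgeR), 1 of 31 tested members with 0.479% of all genes called lower. The call was kept only when Tcm replicate 1 was the library left out, of 6 such fits, and a replicate block called 3. Hk2 had the highest value (0.98, adjusted p = 0.0832 by edgeR). Tem against Tcm gave 0 of 31 (4 at an unadjusted p under 0.05, 0 by DESeq2; 1.95% of all genes), from −0.50 for Pdk1 to 0.49 for Slc2a3.

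In the 4 retrovirus libraries CA-STAT5A was compared with the empty vector in AAB cells, whose markers go against their label as CD8+ cells. By the methods, transduced cells were cultured with IL-2, which the paper calls a potent stimulus of STAT5. The empty vector is thus no control without STAT5 stimulation. By edgeR 0 of 31 tested members were called (7 at an unadjusted p under 0.05, 0 by DESeq2), with 6.63% of all genes called, and the median log2 difference of CA-STAT5A minus empty vector was −0.12 with 22 of 31 below 0. Stat5a itself stood at 60.7 to 60.9 CPM with CA-STAT5A and 3.17 to 8.35 with the empty vector. The extremes were Hk2 (−1.05, SE 0.37, adjusted p = 0.167 by edgeR), at 2.99 and 4.25 CPM with CA-STAT5A and 8.998 and 5.86 with the empty vector, and Bpgm (0.37, adjusted p = 0.312), at 25.5 and 26.0 against 22.7 and 17.2 CPM. The mean log2 CPM of the 34 members was 5.37 and 5.47 with CA-STAT5A and 5.70 and 5.71 with the empty vector, a difference of −0.28. Over the 31 tested members alone it was −0.13. Low members weigh on the mean over all 34, among them Ldhb at 0.366 and 0.554 CPM with CA-STAT5A and 1.396 and 4.54 with the empty vector, and Eno2 at 0.0609 and 0.0 against 0.388 and 0.33. Each vector had 1 male and 1 female library by the same counts, and a term for sex also gave 0 calls.

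Neighbouring genes of glucose metabolism were read from 3 further lists in BBA Tcm cells with IL-15. Of 29 further genes of glucose metabolism 18 were tested, with 3 higher and 3 lower and a median of −0.03. Lower were galactokinase Galk1 (−1.97), the ADP-dependent glucokinase Adpgk (−1.15) and the glucose 6-phosphatase G6pc3 (−0.73), and higher were Pdk2 (0.90), Pfkfb2 (0.72) and H6pd (0.65), a pyruvate dehydrogenase kinase, a phosphofructokinase regulator and the reticulum's glucose 6-phosphate dehydrogenase. Of 10 genes for pyruvate entry into mitochondria 9 were tested and 1 fell, the pyruvate dehydrogenase phosphatase Pdp1 (−0.64, adjusted p = 0.0312 by edgeR; median −0.36). Among 7 regulators 2 fell and the median was 0.12. Myc, a transcription factor known to drive glycolytic genes in T cells, stood at 389.5 and 445 CPM in WT, 146 and 176 in AAB and 72.6 and 89.9 in BBA (BBA −2.36, adjusted p = 0.00013; AAB −1.37, adjusted p = 0.0048, edgeR). Myc also fell in BBA in Tnv with IL-15 (−2.59) and IL-7 (−1.43), Tem with IL-15 (−2.68) and CD4+ cells with IL-7 (−1.49). In these conditions edgeR called at most 3 members. In BBA Tcm with IL-7 Myc differed by −1.39 without being called (adjusted p = 0.0711 by edgeR), and 4 members were called lower and 1 higher. Myc fell too in AAB Tnv with IL-15 (−1.94, adjusted p = 0.0267 by edgeR). It was also lower with CA-STAT5A than with the empty vector (−0.76, adjusted p = 0.0375 by edgeR). The part of Myc in the members' differences was not tested. The other regulator that fell was Bhlhe40 (−0.78, adjusted p = 0.0194 by edgeR).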

How the data were processed

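The authors deposited read counts per gene symbol, without normalization, in a table each for CD8+ T cells, for naive CD4+ cells and for retrovirus libraries. Per the study's methods, poly(A)+ RNA was sequenced in single reads of 50 bases, aligned to mm10 with TopHat2 and counted with HTSeq. The submitters' processing notes name TopHat2, Cufflinks, HTSeq and mm9. Neither the annotation nor the strand setting is given in the sources used here, so reads of overlapping genes, near-identical copies (Eno1 and Eno1b) and pseudogenes could be divided in unknown ways. Only the retrovirus table held summary rows for reads on no gene and the like, 67.002% to 68.402% of a column, and these stayed out of library sizes and tests.

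Of 69 samples 67 were grouped by their labels into 32 groups. The other 2 have a title and a treatment label that differ, and entered no comparison. Libraries of each condition were fitted in edgeR 4.0.16 (R 4.3.3) with TMM normalization and the legacy form of the quasi-likelihood F-test, after a filter that chose among 100 thresholds of 1 to 200 normalized counts the best Jaccard index between replicates (loess span 0.3) and kept genes above it in any library. Calls needed more than 1.5-fold and a Benjamini-Hochberg adjusted p under 0.05 over all genes tested. Values in CPM beside a test were scaled as in its fit, the mean log2 level used a prior of 0.5, and ranges over several conditions used 1 scaling per table. WT responses and cell states were fitted on WT libraries, and interactions on the libraries of both conditions. The scripts were tested on simulated counts.

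The members and lists were chosen with earlier results of these data known, and 1 gene of a list is not reported here. Values in every library are given for the called members with the largest differences in Tcm with IL-15 (up to 5 in each direction), for up to 3 called members in each direction elsewhere and for the extremes of the range; other members with their values (Ldha, Tkt, Slc2a3, Pdk1, and Eno1b over all libraries) were added after their values were seen. Alternatives were DESeq2 1.42.0, DESeq2 size factors in edgeR, no filter on low counts, a single fit per lineage, a block for the replicate number, a sex term, and leaving out each library; the sex term for CA-STAT5A and mean differences without Eno1b or over tested members only were chosen after seeing the data. Sex was taken from Xist against Y-linked counts. Gene positions are from GENCODE M21 (GRCm38) and promoter sequences from RefSeq.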

Additional observations from a re-analysis of the deposited data

Results flagged for a closer look

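The difference between BBA and WT in Tcm cells was itself different with IL-15 and without cytokine for 11 members, by an interaction term in edgeR's quasi-likelihood test. These values are BBA against WT with IL-15 minus the same without cytokine, on the log2 scale. They were −1.68 for Tpi1, −1.49 for Hk2, −1.13 for Slc16a1, −1.13 for Eno1, −0.97 for Tkt, −0.83 for Pkm, −0.83 for Pgam1, −0.77 for Ldha, −0.69 for Gapdh, −0.67 for Pgd and −0.60 for Pfkl. Groups of 2 or 3 libraries were too small for a test of single libraries that stand apart. According to the methods the NC cells were processed directly and the IL-15 cells after culture, though the labels describe culture for NC cells too. Cytokine and culture thus cannot be told apart in these differences.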

How the results depend on the processing

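No called member changed sign under any alternative, and DESeq2 size factors in edgeR moved no number of called members by over 1.5 times. In all, 108 of 165 numbers were within 1.5 times of the value in the text under the other settings and 190 of 235 when a library was left out. In BBA Tcm with IL-15 the same 11 members were called in all 5 alternatives and all 6 fits without a library, and the number was 17 without a filter on low counts and 11 to 13 without a library. In that unfiltered fit the median of all genes was −0.24 and that of the members −0.60, so the members stayed below it by a like amount. There the uncalled Bpgm, Pfkm and Pfkfb3 lay below 0 (−0.07, −0.19 and −0.25), and Slc2a3 (0.28) no longer passed (adjusted p = 0.0704 by edgeR). Among medians of tested members, that of BBA Tcm NC (0.02) was −0.04 without a filter and −0.02 in the fit over the lineage. In BBA Tnv with IL-15 the median of all genes likewise went from −0.01 to −0.33 without a filter. That of the members went from −0.14 to −0.48. The shares of all genes called under the alternatives are not given, so the numbers of members below have no background. The cause of the changes below was not tested. Depth limits Hk2, Ldhb, Aldoc, Eno2 and Slc16a3 most, and groups of 2 libraries give wide errors.

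Numbers of called members without a filter on low counts were, for BBA against WT, 4 in Tnv NC, 5 in Tnv IL-7, 12 in Tnv IL-15, 2 in Tcm NC, 16 in Tcm IL-7 and 3 in Tem NC; for AAB against WT, 2 in Tnv NC, 2 in Tnv IL-7, 4 in Tnv IL-15, 5 in Tcm IL-7, 1 in Tem NC and 1 in CD4 NC. Likewise without a filter they were 11 in Tcm IL-15, 1 in Tnv IL-15 and 1 in CD4 IL-7 for AAB against BBA, 1 for the CD4 interaction, 3 for CA-STAT5A, 3 for Tcm against Tnv, and in WT cells against NC 7 and 1 in Tnv with IL-7 and IL-15 and 3 and 3 in Tcm. DESeq2 called, for BBA against WT, 2 in Tnv IL-7, 5 in Tnv IL-15, 2 in Tcm NC, 13 in Tcm IL-7, 1 in Tem NC and 5 in Tem IL-15, and for AAB against WT, 1 in Tnv NC, 2 in Tnv IL-15, 3 in Tcm IL-7 and 1 in Tem NC. DESeq2 also called 1 in Tnv IL-15 and 1 in CD4 IL-7 for AAB against BBA, 1 for the CD4 interaction, 4 and 5 in WT Tcm with IL-7 and IL-15, and 2 for Tcm against Tnv. A fit over all libraries of the lineage gave, for BBA against WT, 0 in Tnv NC, 3 in Tnv IL-7, 14 in Tcm IL-7 and 5 in Tem IL-15, for AAB against WT 1 in Tnv IL-15 and 7 in Tcm IL-7, and for AAB against BBA 2 in Tcm IL-15. A sex term gave 0 for BBA Tcm IL-7.

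Replicate numbers did not pair the libraries by their labels, and deviations of same-numbered libraries correlated at −0.0558 to 0.798, over 0.1 in 26 of 30 pairs. With a replicate block the numbers were, for BBA against WT, 4 in Tnv IL-7, 5 in Tnv IL-15, 2 in Tcm NC, 3 in Tcm IL-7, 2 in Tem NC and 6 in Tem IL-15, 1 for AAB Tnv IL-15, 1 and 5 for WT with IL-7 in Tcm and CD4 cells, and 3 for Tcm against Tnv. The block moved no other number by over 1.5 times. No paired analysis was possible for the vectors because they share a single replicate number.

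Leaving out a library in turn gave, for BBA against WT, 0 to 3 in Tnv NC, 0 to 2 in Tnv IL-7, 2 to 3 in Tnv IL-15, 0 to 13 in Tcm IL-7, 0 to 0 in Tem IL-15 and 1 to 2 in CD4 IL-7; for AAB against WT, 0 to 1 in Tnv IL-15, 0 to 10 in Tcm IL-7 and 1 to 5 in Tcm IL-15; and for AAB against BBA, 1 to 6 in Tcm IL-15 and 0 to 1 in CD4 IL-7. The ranges were 3 to 12 for the Tcm interaction, 0 to 1 for the CD4 interaction, 0 to 2 for Tcm against Tnv, and in WT cells against NC 2 to 4 in Tnv IL-7, 0 to 2 in Tcm IL-7, 0 to 6 in Tcm IL-15, 0 to 1 in Tem IL-15 and 2 to 3 in CD4 IL-7. The ranges from 0 to 1 or 2 came from WT replicates 1 and 2 of Tcm IL-7, WT replicate 1 of Tem IL-15, BBA replicates 1 and 2 of Tnv IL-15, and BBA replicate 1 (and, for AAB against BBA, WT replicate 1) of CD4 IL-7, besides the libraries named in the text. Where this left 1 library in a group, that library was assumed to vary like the others.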

Other observations

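The 2 CD4+ libraries left out of the comparisons, an AAB and a BBA library, carry titles without cytokine and treatment labels of IL-7, and their values are given without a group. The mean log2 CPM of the 34 members was 5.42 in the AAB library and 5.49 in the BBA library. By role it was 5.61 and 5.64 for transporters, 5.13 and 5.23 for upper glycolysis, 5.71 and 5.84 for lower glycolysis, 4.86 and 4.89 for lactate and pyruvate, and 5.88 and 5.89 for the pentose phosphate pathway. Eno1 stood at 29.8 CPM in the AAB library and 23.5 in the BBA library, Ldha at 542 and 527, Ldhb at 33.7 and 49.9, Aldoc at 1.14 and 0.744, and Tpi1 at 28.1 and 31.7. Eno1b stood at 52.5 CPM in the AAB library and 25.4 CPM in the BBA library.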
